A study of Homo sapiens with 9 samples.

Results

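ALLC, AVPI1, ZNF521 and SMYD3 are the protein-coding genes that hold the strongest peaks of single-stranded DNA in this series, and their 4 windows are described here out of 19866 protein-coding genes. They were picked because each has, inside its body, a peak among the 20 of highest fold enrichment in the KAS library. A gene's window was its RefSeq body plus 10 kb on each side, and a peak counted where it shared at least 1 base with the window. They were thus chosen by the fold enrichment of their KAS peaks, so fold, pileup and length of those peaks are given as a description with no test.

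HL-60 is an established human line from a promyelocytic leukaemia, used here in the form that the labels call dHL60. For the thrombin pulldowns (4 libraries) the cells were induced to form neutrophil extracellular traps (NETs) with 500 nM PMA, a phorbol ester, for 4 h. They were then given 1 µM biotinylated alpha thrombin for 1 h, and trap DNA bound to the thrombin was captured. For the KAS library (1 library) the traps were induced for 4 h, with no dose or thrombin stated, and given 5 mM N3-kethoxal for 10 min. Input libraries (4) were made but not analysed here. The labels name no separate cultures for the pulldown replicates, so their spread may be technical.

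KAS-seq maps single-stranded DNA. N3-kethoxal reacts with guanines that are not base-paired, a biotin is attached to the tagged DNA, and the captured fragments are sequenced. In living cells such signal is known from transcription bubbles, R-loops and other opened DNA. In NETs the chromatin has left the nucleus as a web of DNA, histones and granule proteins, and thrombin, the protease that makes fibrin, is among the blood proteins known to meet it.

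The genes have unrelated roles. ALLC encodes allantoicase, an enzyme of the uric acid breakdown route that is incomplete in humans. AVPI1 (arginine vasopressin induced 1) is known as a vasopressin-responsive transcript. ZNF521 encodes a zinc finger co-factor of haematopoietic progenitor cells that binds and restrains the transcription factor EBF1. SMYD3 encodes a lysine methyltransferase with SET and MYND domains.

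Peaks were taken from 1 deposited list per library. The KAS list held 34247 peaks with a median length of 248 bases, a median pileup of 10 reads and a median fold of 5.43. The pulldown lists held 570 to 886 peaks. Pileup is the height of overlapping reads at the summit, it is not normalized between libraries, and no list exceeded 200. Fold is the authors' enrichment of the summit over the caller's background. Library totals were not analysed here, so depth is unknown.

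In ALLC, 2 KAS peaks were found, a very strong one and a weak one. The gene lies on chromosome 2 from 3645819 to 3702671 of GRCh38, on the plus strand. The strong peak ran from 3651254 to 3651557, was 304 bases long and reached a pileup of 89 reads (exact Poisson 95% interval 71.5 to 109.5, counting error only) and a fold of 26.3. It ranked 3 by fold among all KAS peaks. Its summit lay 5.59 kb inside the lower end of the gene body. The weak peak, from 3669423 to 3669632, was 210 bases long with a pileup of 10 reads and a fold of 5.95, above that of 67.6% of KAS peaks. Between them 17.9 kb held no KAS peak.

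AVPI1 held a lone KAS peak. The gene is short, 9.82 kb on chromosome 10 from 97677424 to 97687241, on the minus strand, and the peak ran from 97678823 to 97679129. It was 307 bases long, with a pileup of 85 reads (exact Poisson 95% interval 67.9 to 105) and a fold of 25.8, rank 4 in the list. The summit was 1.56 kb from the end of the gene where transcription finishes and 8.26 kb from its start. The next KAS peaks, with folds of 5.52 and 5.18, were 68.1 kb away on the lower side and 18.9 kb away on the higher side.

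ZNF521 had more KAS peaks than the other 3 genes, 6 in its window and 5 of them in the body, spread over 290 kb of chromosome 18 from 25061924 to 25352166. The strongest ran from 25312510 to 25312855, with a length of 346 bases, a pileup of 64 reads (exact Poisson 95% interval 49.3 to 81.7) and a fold of 22.7, rank 12. It lay 39.5 kb from the higher end of the gene. A further peak, at 25179003 to 25179319, stood above the ordinary level of the list, with a pileup of 25 reads and a fold of 10.1, rank 640, and it was 133 kb from the strongest. The others were weaker. From low to high position their folds were 6.01, 5.93, 3.91 and 5.00, above those of 68.9%, 66.8%, 5.56% and 32.5% of KAS peaks. They had pileups of 10 to 12 reads and lengths of 200 to 254 bases. The first of them, at 25060363 to 25060566, lay outside the body, with its summit 1.41 kb below the lower end of the gene.

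SMYD3 had 4 KAS peaks across a body of 758 kb on chromosome 1, from 245749347 to 246507279, on the minus strand. The strongest ran from 246002246 to 246002730 and was the longest of the 4 genes' strongest peaks, at 485 bases. It also had the lowest pileup of them, 40 reads (exact Poisson 95% interval 28.6 to 54.5), and a fold of 22.3, rank 14. No KAS peak lay within 77.4 kb below or 319 kb above it. The weak peaks were at 245924681, 246321942 and 246376393, with folds of 4.14, 3.62 and 5.18 and pileups of 7, 6 and 9 reads. The middle of these also lies in SMYD3-IT1, a non-coding RNA gene inside SMYD3.

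**Figure D1:**
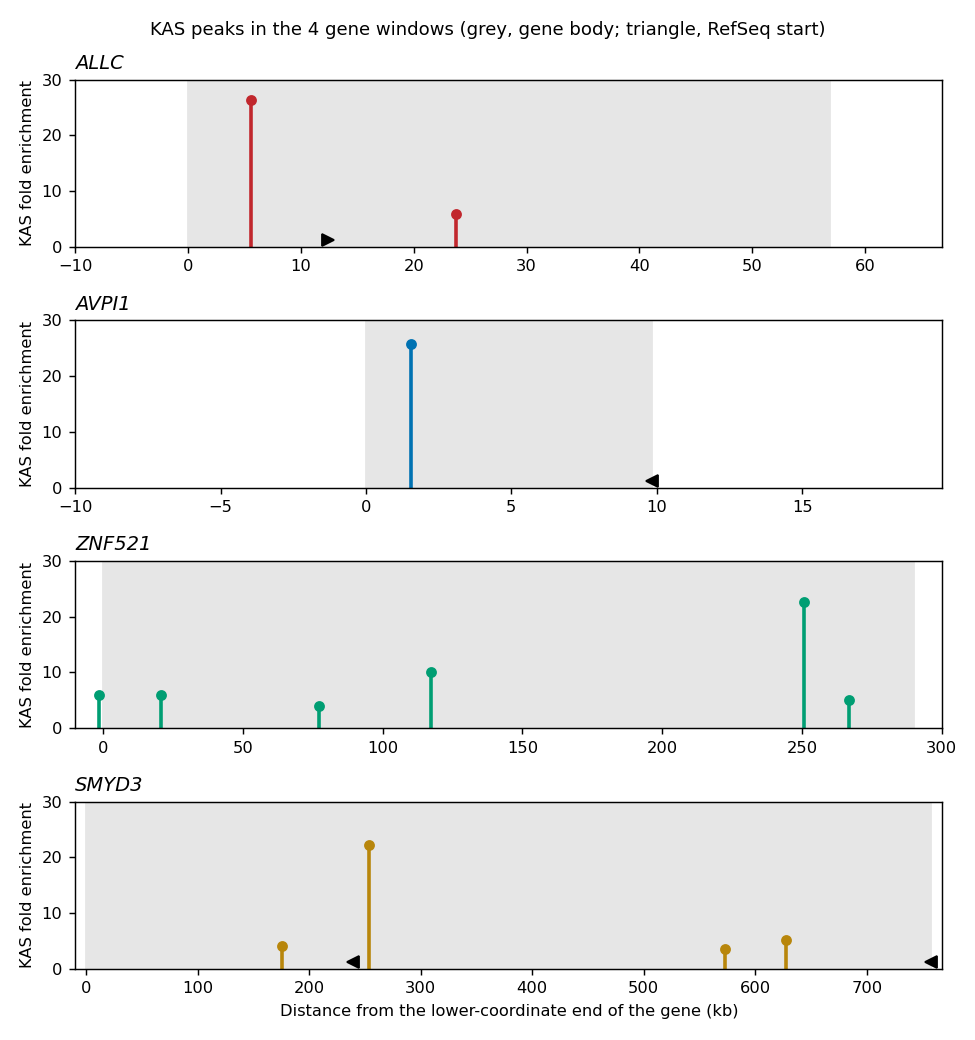
KAS fold enrichment (vertical axis) of each peak against the distance of its summit from the lower-coordinate end of the gene in kb (horizontal axis, a scale of its own per gene), with the gene body in grey and RefSeq starts as triangles that point in the direction of transcription. ZNF521 has no triangle. Each window has 1 peak with a fold above 22 and no other above 10.1.

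The cut that sets these genes apart falls between close values. The 20 strongest KAS peaks, 21 with a tie at the end, had folds down to 21.3, and 4 of the 21 lay in protein-coding gene windows, which are the 4 described here. The SMYD3 peak at 22.3 is the lowest of the 4. A fold of that height or more was found in the windows of 6 protein-coding genes (0.0302%), these 4 and 2 neighbours that share a peak with ALLC and AVPI1. Just outside the cut, the next KAS peak of the list had a fold of 21.2. Below SMYD3 came MOV10 and PPM1J, which hold a peak with a fold of 21.0 in their flanks, then TERT, the telomerase reverse transcriptase gene (17.7), and NHEJ1, a DNA end-joining gene (17.6).

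In length the 4 strongest peaks were not narrow for this library. They measured 304, 307, 346 and 485 bases, and all 4 were longer than the list's median of 248 bases, while 50.3% of KAS peaks, and the strongest peak of 50.1% of protein-coding genes with a KAS peak, were at or under that median. Between 70.3% and 91.7% of KAS peaks were as short as they were or shorter. In contrast, 6 of the 9 weaker peaks in the same windows were at or under the median, and 4 of those 6 measured exactly 200 bases, the shortest length in the list, which 21.5% of KAS peaks share. The 21 strongest peaks, which include these 4, had a median of 327 bases and ran from 256 to 1859. The ALLC, AVPI1 and ZNF521 peaks were close to that median, and the SMYD3 peak was longer. The summits of the ALLC, AVPI1 and ZNF521 peaks lay 0.50, 5.0 and 2.5 bases from the middle of the peak, and that of SMYD3 lay 56 bases from it. The median was 34 bases over the KAS list but 11 bases over the 21 strongest peaks, so summits near the middle were usual at such folds. As a share of peak length, the summits stood at 50.3%, 51.8%, 49.4% and 61.6% from the lower edge in ALLC, AVPI1, ZNF521 and SMYD3.

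**Figure D2:**
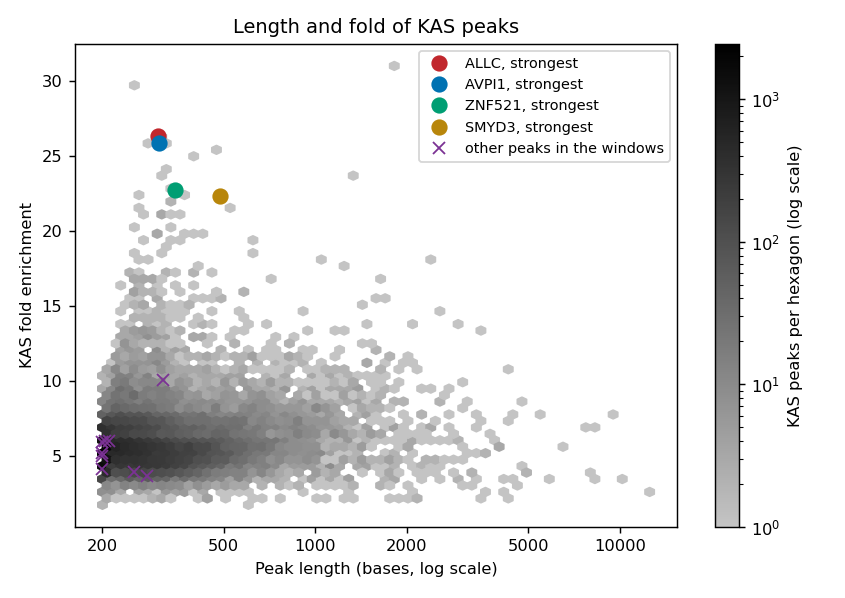
Fold enrichment (vertical axis) against peak length in bases (horizontal axis, log scale) for all 34247 KAS peaks as grey hexagons, darker where more peaks fall, with the strongest peak of each gene as a coloured dot and the 9 other peaks in their windows as crosses. The dots sit at 304 to 485 bases, to the right of the median of 248, while 8 of the 9 crosses lie at folds of 6.01 or less.

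The 4 peaks were high in fold without being the tallest in reads. By pileup they ranked 403 (ALLC), 418 (AVPI1), 553 (ZNF521) and 922 (SMYD3) in the KAS list. The 402 peaks taller than that of ALLC had a median fold of 4.95 and a median length of 691.5 bases. Of these 402, 8 (1.99%) lay in a protein-coding gene window, against 58.1% of all KAS peaks. If the caller added 1 read to pileup and background, pileup plus 1 divided by fold gives its background at a summit plus 1 read. Background plus 1 was then 3.42 reads in ALLC, 3.33 in AVPI1, 2.86 in ZNF521 and 1.84 in SMYD3. Its median was 1.93 over all KAS peaks and 26.6 over the 402 taller ones. The lowest value in the list was 1.78, so the SMYD3 value and the median over all KAS peaks were both near the floor. None of the 32 peaks at the pileup ceiling of 200 lay in a protein-coding gene window, and their highest fold was 5.82.

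**Figure D3:**
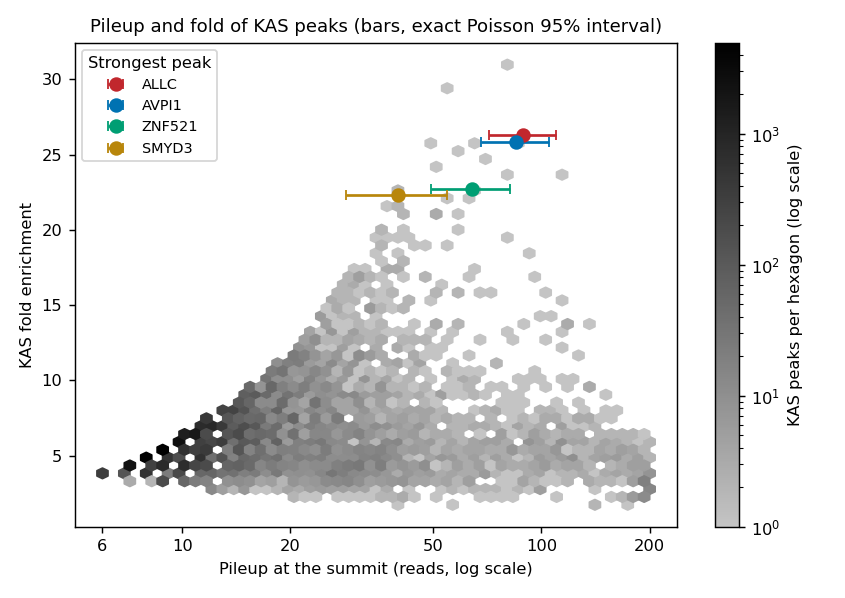
Fold enrichment (vertical axis) against pileup at the summit in reads (horizontal axis, log scale) for all KAS peaks as grey hexagons, darker where more peaks fall, with the strongest peak of each gene as a coloured dot and its exact Poisson 95% interval on the pileup as a bar. The dots lie between 40 and 89 reads at folds of 22.3 to 26.3, and peaks at the ceiling of 200 reads lie at folds of 5.82 or less.

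The strongest peak was isolated in all 4 genes, meaning that no other KAS peak lay within 10 kb of its edges. This is common in the library. Among the 10413 protein-coding genes with a KAS peak in the window, the strongest was isolated in 69.4%, and 55.0% of all KAS peaks were isolated. The nearest other peak was 17.9 kb from that of ALLC, 18.9 kb from that of AVPI1, 15.7 kb from that of ZNF521 and 77.4 kb from that of SMYD3. Isolation to 50 kb held in SMYD3 alone. Of the 402 peaks taller than that of ALLC, 3.23% were isolated, and of the 21 of highest fold, which include these 4, 10 were.

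Numbers of KAS peaks differed among the 4 genes from 1 to 6, and they followed no common pattern. A window with at least 1 KAS peak was found for 52.4% of protein-coding genes, with exactly 1, as in AVPI1, for 23.9%, and with 4 or more, as in ZNF521 and SMYD3, for 9.56%. A KAS peak inside the body, as in all 4, was found for 36.0%. The windows differ in size. Per 100 kb of window there were 3.35 KAS peaks in AVPI1, 2.60 in ALLC, 1.93 in ZNF521 and 0.514 in SMYD3, against a median of 0.534 and a mean of 1.99 over protein-coding genes. The density at SMYD3 was thus close to the median, though its window holds 4 peaks. That median counts genes with no KAS peak. By density SMYD3 ranked 9959, toward the low end of the 10413 protein-coding genes with a KAS peak. Together the KAS peaks covered between 0.150% of the window (SMYD3) and 1.03% (AVPI1).

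The step from the strongest peak to the next was large in these windows, a quantity that the choice of the genes favours. In ALLC the strongest fold was 4.42 times the second, in SMYD3 4.31 times and in ZNF521 2.26 times, and AVPI1 had no second peak. The median of this ratio was 1.15 over the 5666 protein-coding genes with at least 2 KAS peaks. ALLC and SMYD3 ranked 3 and 4 by the ratio, and ZNF521, with its second peak of 10.1, ranked 37. The highest ratio, 5.04, was that of COLEC11, whose window holds the same strong peak as ALLC.

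**Figure D4:**
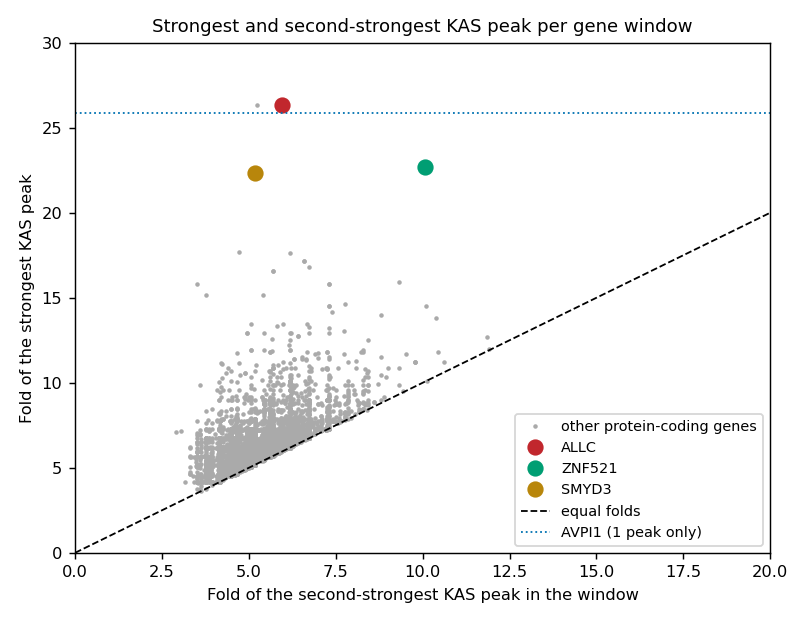
Fold of the strongest KAS peak (vertical axis) against fold of the second-strongest (horizontal axis) in each protein-coding gene window with at least 2 KAS peaks, as grey points, with ALLC, ZNF521 and SMYD3 as coloured dots and AVPI1, which has 1 peak, as a dotted line. The coloured dots stand at 22.3 to 26.3, and the grey point beside that of ALLC is COLEC11, which shares its peak.

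Neighbouring genes shared 2 of the 4 strong peaks. COLEC11, the gene of a collectin of innate immunity, ends 1174 bases below ALLC, and its end is 6.76 kb from the strong summit. PI4K2A, a phosphatidylinositol 4-kinase gene, ends 989 bases below AVPI1, and its end is 2.55 kb from the summit there. Neither gene had a KAS peak in its own body, so both hold these peaks through their flanks. On the higher side, DCDC2C begins 903 bases above ALLC and MARVELD1 26.5 kb above AVPI1, each with 1 KAS peak in its body. Around ZNF521 the nearest protein-coding genes were HRH4 at 582 kb and SS18 at 664 kb, with 2 KAS peaks and none in their bodies, and the 3 non-coding genes inside ZNF521 held none. Around SMYD3 they were KIF26B at 39.9 kb and TFB2M at 33.3 kb, with 4 KAS peaks and 1. Of 6 other genes in the SMYD3 window, SMYD3-IT1 was the only one with a KAS peak. Exons and introns were not analysed here.

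No KAS peak overlapped a start of transcription listed for ALLC, AVPI1 or SMYD3, and no start of ZNF521 was examined. The RefSeq promoter table (GRCh38.p14) has 1 start for ALLC, 1 for AVPI1 and 2 for SMYD3, and 0.866% of all 35116 promoter windows of 300 bases in it overlapped a KAS peak. The strong ALLC summit was 6794 bases upstream of the listed start at 3658200, though inside the gene body, which the gene table begins at 3645819. The strong SMYD3 summit was 505 kb downstream of the first start, at 246507279, and 14.0 kb upstream of the inner start at 245988551. The 250 bases before the listed start nearest to each strong peak are shown 5′ to 3′ on the gene's strand, to show what DNA the KAS peaks left uncovered, with the repeat unit of the series title, ATTCC, or its reverse complement GGAAT in capitals.
ALLC, chr2:3657950-3658199, plus strand: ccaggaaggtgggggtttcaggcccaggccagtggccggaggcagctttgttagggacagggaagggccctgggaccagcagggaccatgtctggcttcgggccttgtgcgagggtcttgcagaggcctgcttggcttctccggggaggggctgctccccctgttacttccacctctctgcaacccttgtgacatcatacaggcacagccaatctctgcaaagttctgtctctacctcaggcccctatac
AVPI1, chr10:97687242-97687491, minus strand: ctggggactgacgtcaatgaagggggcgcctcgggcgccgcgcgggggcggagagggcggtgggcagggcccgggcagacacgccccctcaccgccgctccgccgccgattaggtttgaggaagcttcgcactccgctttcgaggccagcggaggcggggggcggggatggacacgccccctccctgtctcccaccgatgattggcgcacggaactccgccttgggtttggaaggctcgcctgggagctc
SMYD3 inner start, chr1:245988552-245988801, minus strand: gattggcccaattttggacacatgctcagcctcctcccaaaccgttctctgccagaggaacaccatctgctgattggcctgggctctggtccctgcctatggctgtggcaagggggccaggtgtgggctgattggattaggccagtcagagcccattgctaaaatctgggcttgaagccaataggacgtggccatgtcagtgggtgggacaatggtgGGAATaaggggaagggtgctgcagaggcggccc

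N3-kethoxal tags guanine when it is unpaired. Guanine made up 31.2% of the printed strand in ALLC, 39.2% in AVPI1 and 33.6% at the inner SMYD3 start, but 25.6% before the first SMYD3 start, which is not printed, against a median of 28% over all promoters in the table. GC content was 61.2%, 72% and 58% in the printed stretches, against a median of 58%. ATTCC did not occur in the 3 stretches, and GGAAT occurred 1 time, at the inner SMYD3 start. Searched on both strands over the same 250 bases, ATTCC was present in 32.2% of promoters, so a match is common. The nearest KAS peak was 6.39 kb from the ALLC promoter window, 8.06 kb from that of AVPI1 and 13.4 kb from the inner one of SMYD3. The sequence under the KAS peaks was not analysed here.

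No thrombin pulldown peak lay in any of the 4 windows. All 4 pulldown lists had 0 peaks in each of ALLC, AVPI1, ZNF521 and SMYD3, and none overlapped the strong KAS peaks. This is the usual state of a gene in these lists, since 0.0151%, 0.0201%, 0.0503% and 0.0503% of protein-coding genes had a peak of pulldown replicates 1, 2, 3 and 4 in the window, and 0.0705% had a peak of any list. The absence is therefore no feature of these 4 genes, and no test was made. The lists hold only peaks past the caller's threshold, so they do not show how much thrombin-bound DNA came from the genes.

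Pulldown peaks lay megabases away. From SMYD3 the nearest peak was 21.7 Mb away in all 4 replicates, at about the same place, with folds of 3.70, 4.13, 4.58 and 4.58. From ZNF521 it was 4.58, 8.14, 4.99 and 4.99 Mb in replicates 1 to 4, a mean of 5.68 ± 1.66 Mb (SD, n = 4). From AVPI1 it was 36.0, 55.6, 36.0 and 55.4 Mb, a mean of 45.7 ± 11.2 Mb (SD, n = 4). These peaks lay on the higher side of AVPI1 in replicates 1 and 3 and on the lower side in replicates 2 and 4. From ALLC the nearest peak was 29.2, 86.1, 29.2 and 29.2 Mb away, a mean of 43.4 ± 28.4 Mb (SD, n = 4). The means for ZNF521, AVPI1 and ALLC thus take in peaks at different places, and their SDs are not the spread of 1 site. ZNF521 was the only one of the 4 genes with a pulldown peak within 10 Mb.

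Genes related to these 4 by family or pathway are given by their counts, beside the 52.4% of protein-coding genes with a KAS peak in the window. That none reached the folds of the 4 follows from how the 4 were chosen. In the SMYD family, SMYD5 was the only one of the 4 other genes with a KAS peak in the window, with 2 peaks and a strongest fold of 6.21. Among 12 relatives and partners of ZNF521, 10 had a KAS peak (83.3%), with a median strongest fold of 6.23. They include its paralogue ZNF423 with 4 peaks (strongest 5.90), EBF1, the factor that ZNF521 restrains, with 2 (6.99), EBF4 with 2 (7.77) and CHD4, the helicase of the NuRD complex, with 5 (5.70). The highest was EBF2 at 7.86. EBF3, MTA1, MTA2, HDAC1 and RBBP4 had strongest folds from 5.52 (EBF3) to 6.70 (HDAC1). HDAC2 and RBBP7 had none.

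Of 11 other genes of purine metabolism, 4 had a KAS peak. The strongest folds were 8.03 in ADK (adenosine kinase, 10 peaks), 7.08 in GDA (guanine deaminase, 3 peaks), 5.42 in AMPD2 and 5.10 in ADA. None of the 7 other genes of vasopressin signalling, AVP and its receptors AVPR1A, AVPR1B and AVPR2 among them, had a KAS peak. In all, 15 of 34 such genes (44.1%) had a KAS peak, against 52.4% of protein-coding genes. Their strongest folds reached 8.03 at most, against a median of 5.84 over all genes with a peak, and none had a pulldown peak. Long genes have more chances to hold a peak, and the lists were not adjusted for this.

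Likeness was measured over 3 features of the window in this 1 library, the fold and the length of the strongest KAS peak and the number of KAS peaks, each on a log2 scale and divided by its SD over genes. Fold also chose the 4 genes, so that they came out near one another follows from the choice and is a description only. ZNF521 and SMYD3 were each other's nearest gene, at a distance of 1.15 SD. COLEC11 and PI4K2A were at a distance of 0 from ALLC and AVPI1, whose peaks they share. Beyond shared peaks, ALLC was nearest to AVPI1 (1.06 SD), and AVPI1 to MOV10 and PPM1J (0.964 SD). YJU2 and EBI3, which share a peak of 318 bases with a pileup of 96 reads and a fold of 17.2, followed SMYD3 for ZNF521. NHEJ1 and LHPP, with strongest folds of 17.6 and 16.6, followed ZNF521 for SMYD3.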

How the data were processed

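Each library's peak list was deposited in the layout that MACS2 writes, with length equal to end minus start plus 1. Per the submitters' processing notes the tools were BWA, SAMtools 1.6, Picard 2.27.4, MACS2 2.2.7.1 and bedtools 2.30.0 with the build GRCh38.p13, and roles, settings and the use of inputs as control are not given in the sources used here. The authors' pileup signal is a read height, and the authors' fold enrichment is a ratio over the caller's background. The −log10 p and −log10 q are the authors' too, with −log10 q of at least 2.00. KAS peak numbers begin at 1951 and pulldown numbers at 195 to 259, so any peak numbered below these was not used here.

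Gene bodies came from a RefSeq table of GRCh38.p14. Rows of scaffolds and patches that carry a chromosome's name (718) were left out, as were rows outside the autosomes, X and Y. Of 59792 rows, 58961 genes were kept, 19866 of them protein-coding. Windows were bodies plus 10 kb on each side, a peak counted with 1 shared base, isolated meant no other KAS peak within 10 kb, and narrow meant at or under the median KAS length. The genes and lists were chosen with earlier results of these data known. Named genes were the 4 genes, genes in their windows, the nearest protein-coding gene on each side, list genes with a KAS peak, the next 5 by strongest fold and the 3 most alike. An item of these is not reported here, and non-coding genes and pseudogenes in the windows are given mostly as counts. No comparison was tested, because 1 KAS library exists and its values chose the genes, and Dixon's test was used only to look for a pulldown library apart from the other 3. Poisson intervals cover counting error only. Python 3.11.15, NumPy 2.4.6, pandas 2.3.3, SciPy 1.17.1 and matplotlib 3.10.9 were used. Window counts were checked against bedtools 2.31.1, with 0 of 19866 windows differing, and were tested on simulated data. Alternatives covered the flank, the placement rule, the peak threshold, the isolation distance, the length limit, the ranking measure and leaving out each pulldown replicate.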

Additional observations from a re-analysis of the deposited data

Results flagged for a closer look

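Dixon's outlier test for 4 samples, with 95% critical values, was applied to 8 sets of 4 pulldown values, the distance to the nearest peak and the number of peaks in the window for each gene, and 3 sets passed. Chance passes about 1 set in 20, and the 4 sets of counts, all at 0, could not pass. Replicate 2 had its nearest peak to ALLC at 86.1 Mb, far from the 29.2 Mb of the other 3. Replicate 2 also stood apart for ZNF521, at 8.14 Mb against 4.58 to 4.99 Mb. Replicate 2 has the shortest list, with 570 peaks, and whether that plays a part was not tested. For SMYD3 replicate 1 was the one apart, at 21.735 Mb, but the other 3 lay at 21.733 Mb, so the gap is a few kb.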

How the results depend on the processing

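Of 102 values recomputed for 22 results, 77 stayed within 1.5 times the value reported and 25 did not. The number of KAS peaks at AVPI1 became 3 with flanks of 20 kb and 5 with flanks of 50 kb. That at SMYD3 became 1 with a −log10 q of at least 5, and 1 with the 50% of KAS peaks of higher fold. The pulldown counts of 0 stayed at 0 with every flank, at the stricter q and without each replicate (0 to 0). The strongest peak was isolated to 50 kb in 1 gene of 4. Under the limit of 309 bases, the median of as many of the strongest KAS peaks as the mean pulldown list holds, 2 of 4 counted as narrow.

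Ranks by strongest peak moved most. Ranked by pileup, ALLC, AVPI1, ZNF521 and SMYD3 were 11, 13, 26 and 96 among protein-coding genes, in place of 1, 3, 5 and 6. Ranked by −log10 p, ZNF521 was 8 and SMYD3 20. With flanks of 50 kb the ranks by fold were 4, 6, 10 and 11, and with no flank ZNF521 was 3. By KAS peaks per 100 kb, ALLC went from 5861 to 3117 and AVPI1 from 4525 to 738 with no flank, and AVPI1 to 2805 with 50 kb.

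Genes with a KAS peak in the SMYD family went from 2 to 1 with no flank and 4 with 50 kb. In purine metabolism they went from 5 to 3 and 9, and in vasopressin signalling from 1 to 4 with 50 kb. The share over protein-coding genes went from 52.4% to 36.0% and 74.8%. No paired analysis was possible because the groups set side by side, pulldown and KAS, share 1 replicate number, and their peaks are given as counts with no test between groups. Depth is unknown and 1 KAS library was made, so the KAS values have no replicate check.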
